A study of Mus musculus with 6 samples.

Results

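The genes described here are 10 metalloproteases of the ADAM and ADAMTS families, 4 ADAM genes (*Adam10*, *Adam12*, *Adam17*, and *Adam19*) and 6 ADAMTS genes (*Adamts1*, *Adamts2*, *Adamts5*, *Adamts9*, *Adamts10*, and *Adamts12*). They were chosen by name, with earlier results of these data known. They were found in the table of exonic read counts by Ensembl identifier, as 10 of the 55401 genes that the table lists. The counts were made by bulk RNA-seq from cultured primary Schwann cells (SCs), the glia of peripheral nerve, in 3 WT cultures and 3 cultures labelled PB1 -/-, called *Plxnb1*-/- below, which lack Plexin-B1, a receptor for class 4 semaphorins. The study used this comparison to ask what Plexin-B1 does in SCs after nerve injury. All 6 cultures came from dorsal root ganglia (DRG) of adult mice of unstated sex, and both genotypes were grown in the same medium with serum, forskolin, and neuregulin and were depleted of fibroblasts with an antibody to Thy1. The cells were therefore measured after passages in culture, without axons and without injury. The allele is constitutive and carries a gene trap with a transmembrane domain and *lacZ*, so that Plexin-B1 was missing in every cell type of the animal and not in SCs alone. The labels name the controls WT, whereas the methods of the study allow heterozygous littermates among its controls. The library names place the letter M before each replicate number, but the labels do not say whether it stands for an animal. The p-values measure the spread between these cultures.

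ADAM proteases sit in the plasma membrane and cut other membrane proteins close to the cell surface, a step called ectodomain shedding that releases growth factors and ends or starts signaling by receptors and adhesion molecules. ADAMTS proteases are secreted, bind the matrix through thrombospondin repeats, and cut proteoglycans, procollagens, and other matrix proteins. Both are made as inactive precursors whose prodomain is removed by proprotein convertases such as furin, and both use a zinc ion held by histidines in the catalytic domain. In peripheral nerve, ADAM17 is known for cutting neuregulin-1, the axonal growth factor that instructs SCs to myelinate, and the p75 neurotrophin receptor. mRNA levels do not report the activity of these enzymes, which is set after translation.

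The zinc site is shown for each of the 10 genes because it is what makes these proteins proteases. It was read from the coding sequence of the GENCODE annotation of GRCm38, 33 bases or 11 codons, written 5′ to 3′ on the strand of the gene. Capitals mark the codons of the 3 zinc-binding histidines, of the catalytic glutamate, and of the eighth residue, and where the site lies on a pair of exons the coordinates span the intron between them.
*Adam10* (chr9:70754296-70761585, plus strand, exons 9 and 10): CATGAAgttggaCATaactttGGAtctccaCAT
*Adam17* (chr12:21336732-21336764, minus strand, exon 12): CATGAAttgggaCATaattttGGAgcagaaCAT
*Adam12* (chr7:133961158-133961190, minus strand, exon 11): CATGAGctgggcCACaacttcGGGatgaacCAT
*Adam19* (chr11:46125050-46125082, plus strand, exon 11): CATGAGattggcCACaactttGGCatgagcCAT
*Adamts1* (chr16:85799191-85799545, minus strand, exons 3 and 4): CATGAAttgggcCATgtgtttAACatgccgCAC
*Adamts9* (chr6:92905285-92908493, minus strand, exons 8 and 9): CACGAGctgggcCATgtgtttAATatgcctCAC
*Adamts5* (chr16:85878015-85887826, minus strand, exons 2 and 3): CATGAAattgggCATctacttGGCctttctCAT
*Adamts2* (chr11:50775403-50776134, plus strand, exons 7 and 8): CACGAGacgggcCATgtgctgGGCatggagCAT
*Adamts10* (chr17:33538157-33538279, plus strand, exons 9 and 10): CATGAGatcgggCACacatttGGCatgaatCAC
*Adamts12* (chr15:11241529-11255564, plus strand, exons 7 and 8): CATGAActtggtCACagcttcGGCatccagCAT

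The zinc site was found in 10 of 10 genes. This count was partly set by the search, whose eighth codon was widened to asparagine after *Adamts1* and *Adamts9* gave no match. The eighth codon encodes glycine in 8 of them and asparagine in 2, *Adamts1* and *Adamts9*. The most alike pairs were *Adam12* with *Adam19* and *Adamts1* with *Adamts9*, each with 28 of 33 bases identical, and *Adam10* and *Adam17* shared 26 of 33. Pairs across the families were also alike, with 26 of 33 for *Adam19* and *Adamts10* and 25 of 33 for *Adam12* and *Adamts12*. Part of this identity was set by the search, which required the marked codons. *Adam10* and *Adamts2* were least alike, with 15 of 33. The same site was found in 16 of the 29 other ADAM genes and in 12 of the 13 other ADAMTS genes. It was found in 0 of the 7 ADAMTS-like genes, which encode secreted relatives known to lack the protease domain. For the other genes without a match, the search shows only that this pattern of codons was absent from the transcript searched.

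The libraries held from 59252048 to 77280964 counts, and the floor of detection, taken as 3 counts, was 0.0388 to 0.0506 CPM by library total. All other CPM are counts scaled to the effective size of the library. Such floors and errors cover counting error only. Of all genes, 22318 passed the filter of at least 2 counts in at least 5 of 6 libraries and were tested. The targeted gene, *Plxnb1*, stood at 61.8, 45.4, and 96.4 CPM in WT replicates 1, 2, and 3 and at 13.1, 16.6, and 18.6 CPM in the *Plxnb1*-/- replicates, a log2 fold change of −2.08 ± 0.25 (SE; adjusted p = 0.0449, edgeR quasi-likelihood test with Benjamini-Hochberg adjustment over all tested genes). This call was lost in edgeR without WT replicate 1 or any 1 of the *Plxnb1*-/- replicates (adjusted p from 0.0886 to 0.268). *Sox10*, a transcription factor of SCs, was high in every culture, and so were fibroblast genes such as *Col3a1*. WT replicate 2 stood apart from the other cultures, with the lowest sum of 10 SC markers (2430 CPM against 2850 to 3319 CPM in the others) and the highest sum of 10 fibroblast markers (7244 CPM against 5133 to 5930 CPM). *Col3a1* alone held most of the fibroblast sum, 6130 CPM in WT replicate 2 and 4339 to 5039 CPM in the others. Because WT replicate 2 stood apart, fold changes without it are given beside the results below.

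All 10 proteases were expressed well above the floor. Their counts lay between 1330, for *Adamts9* in the culture where it was lowest, and 49937, for *Adam10* in the culture where it was highest, and counting error at the lowest count of each gene was between 0.605% and 2.74%. To compare genes, CPM were divided by the length of the exons. On this scale, *Adam10* had the highest level, 110 ± 13.6 CPM per kb in WT and 126 ± 3.35 CPM per kb in *Plxnb1*-/- cultures (SD, n = 3 each). It was followed by *Adam19* at 58.8 ± 6.96 and 50.4 ± 2.14 CPM per kb, *Adamts1* at 40.1 ± 4.04 and 43.9 ± 1.08, and *Adam12* at 37.1 ± 0.375 and 33.9 ± 1.65. Levels were intermediate for *Adamts2*, *Adam17*, *Adamts5*, and *Adamts12*, with means over the 6 cultures of 19.0, 16.8, 16.7, and 10.6 CPM per kb. *Adamts10* and *Adamts9* were lowest, at 3.65 and 1.66 CPM per kb. Among all tested genes, 98.6% had a lower level per length than *Adam10* and 44.8% a lower level than *Adamts9*.

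**Figure D1:**
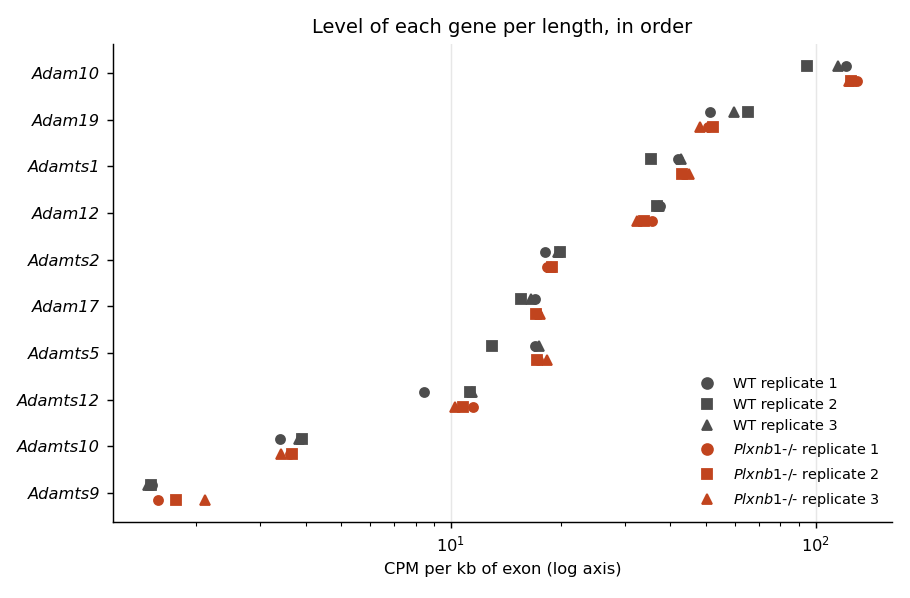
Level of each gene in CPM per kb of exon (log axis), with 1 point per culture, WT above and *Plxnb1*-/- below the line of each gene. *Adam10* is highest in all 6 cultures and *Adamts9* lowest, at means of 118 and 1.66 CPM per kb, and the points of *Adamts1* and *Adam12* and of *Adam17* and *Adamts5* overlap.

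Most neighbours in this order were separated in all 6 cultures. The exceptions were *Adamts1* and *Adam12*, in this order in 5 of 6 cultures, and *Adam17* and *Adamts5*, in this order in 1 of 6, so that these pairs did not differ beyond their spread. The order also depends on the length used. With the longest transcript in place of all exons, *Adam12* (48.9 CPM per kb) passed *Adamts1* (45.6), and *Adam17* (26.9) passed *Adamts2* (24.4).

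The genotypes were then compared for each gene. None of the 10 genes passed the test, which required a log2 fold change beyond 0.25 in either direction and an adjusted p below 0.05. edgeR called 0 of 10, against a background of 8 of 22318 tested genes (0.0358%, with 0.00448% higher and 0.0314% lower in *Plxnb1*-/- cultures). DESeq2, a second tool for counts, also called 0 of 10. Its background was 335 of the 14960 genes to which it gave an adjusted p (2.24%), and all 10 genes had one. At an unadjusted p below 0.05, edgeR counted 4 of 10, *Adam10* and *Adamts9* on the higher side and *Adam12* and *Adam19* on the lower side, where 13.7% of all tested genes reached this level (6.95% higher and 6.78% lower). The 3 WT cultures did not overlap with the 3 *Plxnb1*-/- cultures in 5 of 10 genes, *Adam10*, *Adam17*, *Adamts1*, and *Adamts9* with higher and *Adam12* with lower values in *Plxnb1*-/-, against 19.7% of all tested genes (9.3% higher and 10.4% lower). The list was not tested as a whole.

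The estimates were small. In *Plxnb1*-/- cultures, 6 genes had higher and 4 lower estimates, with log2 fold changes from −0.22 for *Adam19* to 0.28 for *Adamts9* and a median of 0.07, against a median of 0.005 over all tested genes. The median absolute log2 fold change was 0.13 for the 10 genes and 0.12 for all tested genes. The 95% intervals of all 10 genes lay between −0.40 and 0.50. The interval included 0 for 6 of 10 genes. Where it excluded 0, for *Adam10*, *Adam12*, *Adam19*, and *Adamts9*, its bound nearest to 0 lay between −0.04 and 0.06. The median was 0.10 for the 6 ADAMTS genes and −0.02 for the 4 ADAM genes, and it was 0.04 and −0.04 without WT replicate 2.

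**Figure D2:**
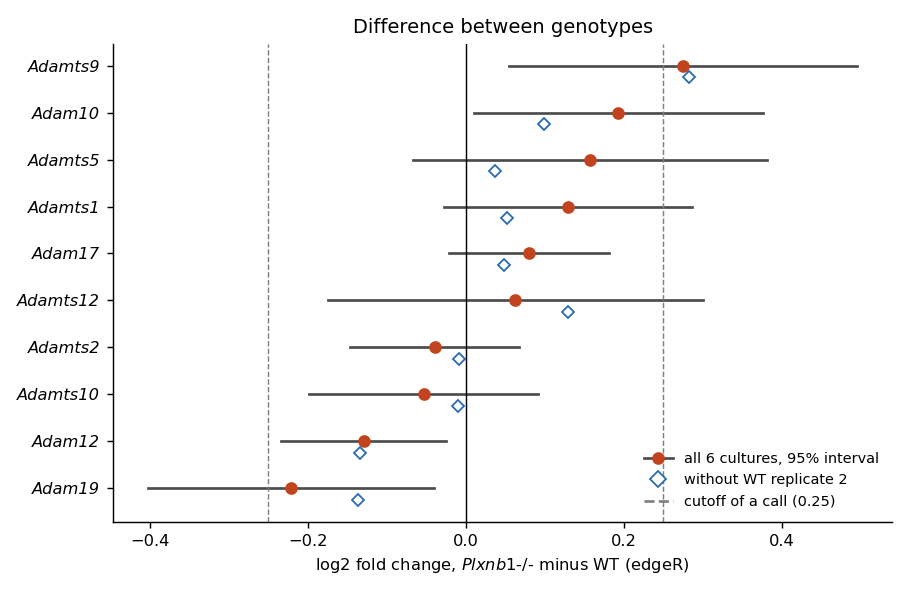
Log2 fold change of each gene in *Plxnb1*-/- against WT cultures (edgeR; circles, all 6 cultures with the 95% interval; diamonds, without WT replicate 2), with the cutoff of a call at 0.25 as dashed lines. Intervals lie between −0.40 and 0.50, and only the estimate of *Adamts9* lies beyond the cutoff.

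*Adam10* and *Adam17* encode the principal sheddases of the cell surface. ADAM10 cuts Notch receptors, cadherins, and the amyloid precursor protein, and ADAM17 releases tumor necrosis factor and ligands of the epidermal growth factor receptor. *Adam10* (chr9:70678997-70780229) lies on the same chromosome as *Plxnb1*, 38.3 Mb away. It stood at 594, 467, and 565 CPM in WT replicates 1, 2, and 3 and at 638, 615, and 606 CPM in *Plxnb1*-/- replicates 1, 2, and 3. Every *Plxnb1*-/- culture lay above every WT culture, and WT replicate 2 was far below the other 5. The log2 fold change was 0.19 ± 0.08 (SE; 95% interval, 0.01 to 0.38), with an adjusted p of 0.348 in edgeR and 0.224 in DESeq2. Without WT replicate 2 the estimate was 0.10. *Adam17* (chr12:21323509-21373632) stood at 121, 111, and 118 CPM in WT replicates and at 123, 122, and 126 CPM in *Plxnb1*-/- replicates. These groups did not overlap either, but they were close, and the log2 fold change was 0.08 ± 0.04 (SE; 95% interval, −0.02 to 0.18; adjusted p = 0.465 in edgeR), or 0.05 without WT replicate 2. Its exons share 4.35% of their length with *Iah1* on the opposite strand, and since the strand setting of the counting is not given in the sources used here, reads of such genes cannot be told apart.

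*Adam12* and *Adam19* encode the meltrins α and β, membrane proteases first known from muscle and expressed in mesenchymal cells, and ADAM19 is also known to cut neuregulin-1. Both had lower estimates in *Plxnb1*-/- cultures. *Adam12* (chr7:133883199-134232146) stood at 395, 388, and 394 CPM in WT replicates and at 376, 357, and 342 CPM in *Plxnb1*-/- replicates. The WT values lay within a narrow range, with a coefficient of variation of 1.01%, and all *Plxnb1*-/- values were below them. The log2 fold change was −0.13 ± 0.05 (SE; 95% interval, −0.23 to −0.03; adjusted p = 0.301 in edgeR and 0.200 in DESeq2), and it was −0.13 without WT replicate 2. *Adam19* (chr11:46055992-46147343) stood at 366, 464, and 424 CPM in WT replicates and at 361, 373, and 342 CPM in *Plxnb1*-/- replicates. Here the groups overlapped, because WT replicate 1 lay within the range of the *Plxnb1*-/- cultures, and WT replicate 2 was highest. The log2 fold change was −0.22 ± 0.08 (SE; 95% interval, −0.40 to −0.04; adjusted p = 0.305 in edgeR and 0.142 in DESeq2) and −0.14 without WT replicate 2. The antisense genes *Gm16033* and *Gm16034* share 8.25% and 6.75% of the exons of *Adam19*.

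*Adamts1*, *Adamts5*, and *Adamts9* encode proteoglycanases, which cut versican and aggrecan. *Adamts1* (chr16:85793827-85803113) and *Adamts5* (chr16:85856173-85901828) are neighbours on the minus strand. *Adamts1* stood at 222, 188, and 227 CPM in WT replicates and at 229.9, 229, and 239 CPM in *Plxnb1*-/- replicates. The *Plxnb1*-/- cultures had a coefficient of variation of 2.45% and lay just above WT replicate 3, whereas WT replicate 2 was low. Its log2 fold change was 0.13 ± 0.07 (SE; 95% interval, −0.03 to 0.29; adjusted p = 0.443 in edgeR). *Adamts5* had the same order of WT cultures, at 183, 140.0, and 189 CPM, and stood at 187, 186, and 198 CPM in *Plxnb1*-/- replicates, with a log2 fold change of 0.16 ± 0.10 (SE; 95% interval, −0.07 to 0.38; adjusted p = 0.514 in edgeR). Without WT replicate 2, the estimates were 0.05 for *Adamts1* and 0.04 for *Adamts5*. *Adamts9* (chr6:92772699-92943492) differed from these in its pattern over cultures. It stood at 22.8, 22.7, and 22.3 CPM in WT replicates and at 23.6, 26.6, and 31.9 CPM in *Plxnb1*-/- replicates, so that the WT cultures were alike and the *Plxnb1*-/- cultures spread upward, with replicate 3 highest. The coefficient of variation in WT, 1.28%, was below the counting error at the lowest count, 2.74%. These 3 close values therefore do not show how far WT cultures vary. The log2 fold change was 0.28 ± 0.10 (SE; 95% interval, 0.06 to 0.50; adjusted p = 0.299 in edgeR and 0.136 in DESeq2). It was 0.28 without WT replicate 2 and 0.15 without *Plxnb1*-/- replicate 3. Genes on the opposite strand share 9.18% (*A730049H05Rik*) and 2.82% (*Gm15737*) of its exons.

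*Adamts2* encodes the procollagen N-proteinase, which trims fibrillar procollagens, ADAMTS10 is known for its part in fibrillin microfibrils, and ADAMTS12 can cut cartilage oligomeric matrix protein. The genotypes overlapped in all 3 genes. *Adamts2* (chr11:50602084-50807573) stood at 169, 186, and 183 CPM in WT replicates and at 172, 177, and 176 CPM in *Plxnb1*-/- replicates, a log2 fold change of −0.04 ± 0.05 (SE; 95% interval, −0.15 to 0.07; adjusted p = 0.755 in edgeR). *Adamts10* (chr17:33524204-33553782) stood at 28.0, 32.3, and 31.6 CPM in WT replicates and at 30.0, 30.3, and 28.3 CPM in *Plxnb1*-/- replicates, a log2 fold change of −0.05 ± 0.06 (SE; 95% interval, −0.20 to 0.09; adjusted p = 0.754 in edgeR). Without WT replicate 2, the estimates were −0.009 for *Adamts2* and −0.01 for *Adamts10*. For both, the interval from all 6 cultures excludes a change of the size of the cutoff in either direction. *Adamts12* (chr15:11064790-11349231) stood at 92.4, 123, and 125 CPM in WT replicates and at 126, 118, and 112 CPM in *Plxnb1*-/- replicates. WT replicate 1 was low and the other 5 cultures were close together. The log2 fold change was 0.06 ± 0.10 (SE; 95% interval, −0.17 to 0.30; adjusted p = 0.835 in edgeR), and it was 0.13 without WT replicate 2 and turned to −0.06 without WT replicate 1.

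**Figure D3:**
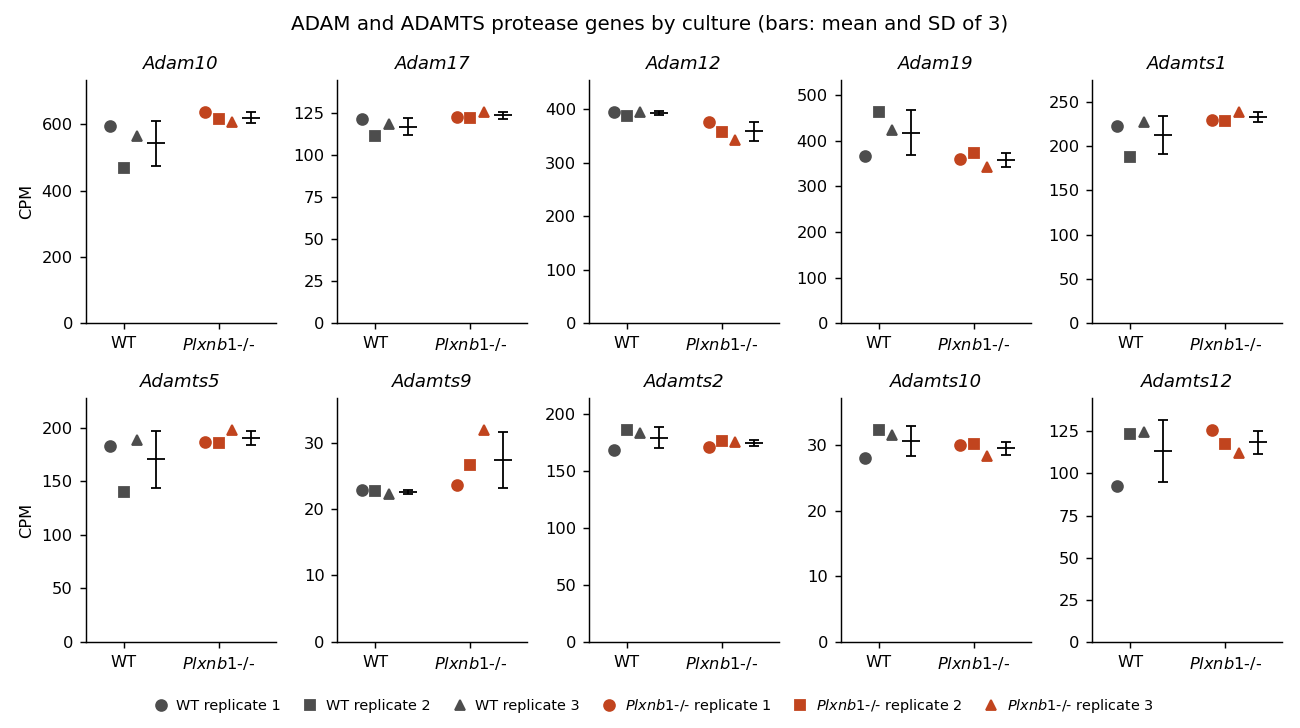
CPM of each gene in each culture (vertical axes from 0; symbols give the replicate), with mean and SD of the 3 cultures of a genotype. The genotypes are apart but close in *Adam10*, *Adam17*, *Adam12*, *Adamts1*, and *Adamts9*, and WT replicate 2 (square) is the lowest point of *Adam10*, *Adam17*, *Adamts1*, and *Adamts5*.

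The spread among WT cultures differed between genes. The coefficient of variation in WT was 1.01% for *Adam12* and 1.28% for *Adamts9*, and it was between 10.1% and 16.1% for *Adam10*, *Adam19*, *Adamts1*, *Adamts5*, and *Adamts12*, where the median of tested genes at 20 CPM or more was 4.12%. Among *Plxnb1*-/- cultures it was below 6% for all but *Adamts9* (15.3%), with a median of 3.59% for such genes. WT replicate 2 held the lowest value of 4 genes (*Adam10*, *Adam17*, *Adamts1*, and *Adamts5*) and the highest of 3 (*Adam19*, *Adamts2*, and *Adamts10*), 7 of 10 in all, and it held the lowest or highest value in 52.2% of all tested genes. *Plxnb1*-/- replicate 3 held the lowest value of 2 genes and the highest of 4, 6 of 10 in all, against 39.0% of all tested genes. In WT replicate 2, *Adam10*, *Adamts1*, and *Adamts5* were 0.32, 0.24, and 0.37 log2 units below the mean of the 6 cultures, whereas *Adam19* was 0.26 above it. The sum of SC markers was 0.28 below the mean of the 6 cultures in WT replicate 2, and the sums of fibroblast and mural cell markers were 0.33 and 0.34 above it. Between genotypes, the summed SC markers lay between 2430 and 2891 CPM in WT and between 2942 and 3319 CPM in *Plxnb1*-/- cultures, with 9 of 10 genes on the higher side. Fibroblast markers lay between 5497 and 7244 CPM in WT and between 5133 and 5411 CPM in *Plxnb1*-/- cultures, with 8 of 10 on the lower side. Most of this sum was *Col3a1*. DESeq2 called 1 fibroblast marker, *Dpep1*, which was higher in *Plxnb1*-/- cultures (log2 fold change, 0.82; DESeq2 adjusted p = 0.044). Mural cell markers lay between 1916 and 2546 CPM in WT and between 1733 and 1861 CPM in *Plxnb1*-/- cultures, with 6 of 10 on the higher side although the sum was lower. Macrophage markers lay between 49.4 and 56.1 CPM in WT and between 57.2 and 68.2 CPM in *Plxnb1*-/- cultures, with 10 of 10 on the higher side. Neuron markers (147 to 161 and 165 to 185 CPM) and satellite glia markers (769 to 890.2 and 914 to 942 CPM) had the same direction, and endothelial markers (81.5 to 106 and 85.6 to 91.8 CPM) overlapped. No marker was at 0 in all cultures. The part of cell composition in the values of the proteases was not tested, and in bulk RNA fewer cells of a type cannot be told apart from less RNA per cell.

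**Figure D4:**
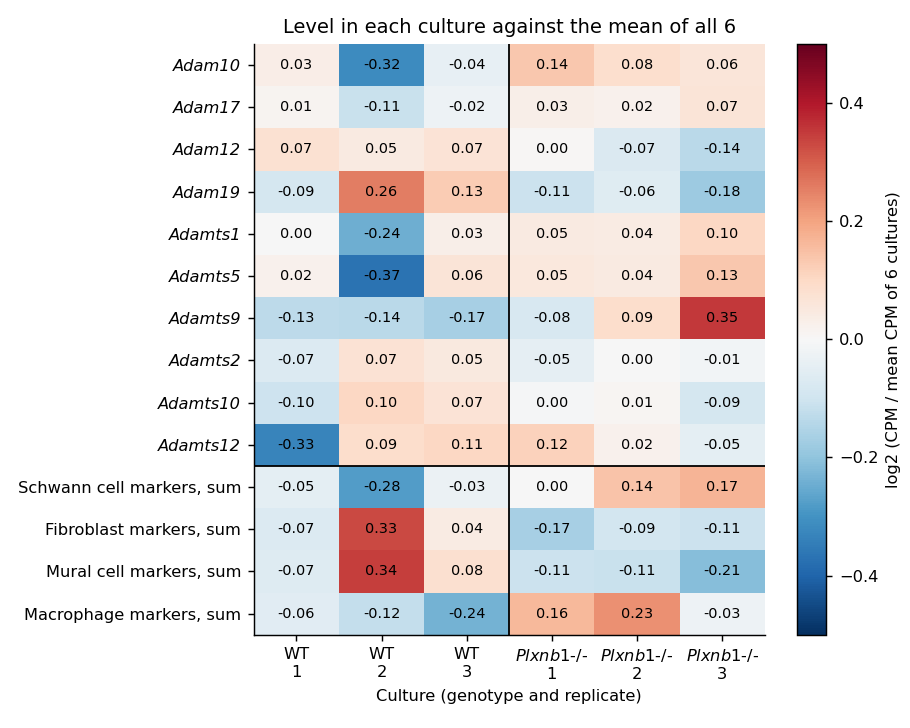
Level of each gene, and summed CPM of 4 marker lists, in each culture as log2 of the ratio to the mean of the 6 cultures (blue lower, red higher). WT replicate 2 holds values of −0.32 for *Adam10*, −0.37 for *Adamts5*, and 0.26 for *Adam19*, beside −0.28 for SC markers and 0.33 for fibroblast markers.

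Leaving out WT replicate 2 left 5 of 10 genes without overlap between genotypes, against 25.9% of all tested genes, and a median log2 fold change of 0.04. edgeR called 0 of 10 genes under every setting run, with the lowest adjusted p of a gene in edgeR or DESeq2 at 0.121 over the settings planned. The exceptions arose when DESeq2 was run with a library left out, which was added after seeing the data. Without WT replicate 1 it called *Adam10* (log2 fold change, 0.26; adjusted p = 0.0368) and *Adam19* (−0.31; adjusted p = 0.0007), and without *Plxnb1*-/- replicate 1 it called *Adamts9* (0.37; adjusted p = 0.0223). Over all genes DESeq2 called 938 in the former fit and 286 in the latter, against 335 with all libraries.

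The other genes of both families were examined in the same fit. Of the 42 ADAM and ADAMTS genes outside the 10, 23 were tested and 19 did not pass the filter, of which 10 had 0 counts in all libraries. Among the 12 other ADAM genes tested, edgeR called 0 and counted 2 at an unadjusted p below 0.05, against 13.7% of all tested genes. DESeq2 called the same 2 higher in *Plxnb1*-/- cultures, against 1.03% of the 14960 genes with a DESeq2 adjusted p. Of the 12 genes, 5 lacked such a value. *Adam23*, a neuronal adhesion protein that lacks the zinc site, had a level of 25.2 ± 5.55 CPM in WT and of 36.7 ± 3.13 CPM in *Plxnb1*-/- cultures (SD, n = 3), with a log2 fold change of 0.54 (adjusted p = 0.0074 in DESeq2 and 0.273 in edgeR). Neuron markers moved the same way, with 10 of 10 on the higher side, of which 2 had an unadjusted p below 0.05 in edgeR and 0 were called. Markers of SCs (9 of 10), satellite glia (5 of 5), and macrophages (10 of 10) were also on the higher side. The part of any of these cell types was not tested. Without WT replicate 2 the log2 fold change of *Adam23* was 0.39. *Adam8*, a protease known from leukocytes, stood at 8.14 ± 0.163 and 10.5 ± 0.484 CPM, with a log2 fold change of 0.36 (adjusted p = 0.00955 in DESeq2 and 0.235 in edgeR). Macrophage markers, which are leukocyte genes, were also higher in *Plxnb1*-/- than in WT cultures (above). DESeq2 called 2 of these 10 higher, *C1qb* (adjusted p = 0.0215) and *Cx3cr1* (adjusted p = 0.0497). The part of these cells in *Adam8* was not tested. DESeq2 called 0 of these 12 genes without *Plxnb1*-/- replicate 2, without *Plxnb1*-/- replicate 3, or without WT replicate 3. Without *Plxnb1*-/- replicate 1 it called *Adam23* (adjusted p = 0.0223) but not *Adam8* (adjusted p = 0.0676). Among the 11 other ADAMTS genes tested, 8 had lower and 3 higher estimates, with a median log2 fold change of −0.24 (−0.15 without WT replicate 2), and neither tool called a gene. An unadjusted p below 0.05 in edgeR was reached by 7 of them (2 higher and 5 lower), against 13.7% of all tested genes. *Adamts14*, named after its values were seen, had an adjusted p of 0.048 in DESeq2 and a log2 fold change of −0.24, just short of the cutoff. The extremes among those with a mean of at least 1 CPM were *Adamts16* at −0.80 ± 0.31 and *Adamts20* at 0.58 ± 0.25 (SE), which became −0.39 and 0.35 without WT replicate 2. Of the 7 ADAMTS-like genes, 6 had higher estimates, with a median of 0.15 and 0 at an unadjusted p below 0.05, and neither tool called a gene.

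**Figure D5:**
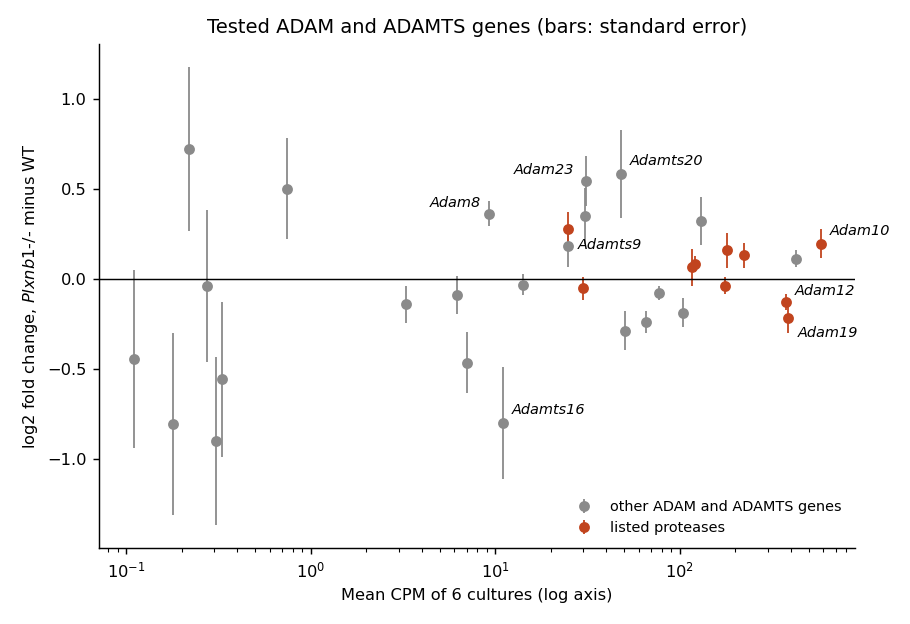
Log2 fold change with standard error against mean CPM (log axis) for the 33 tested ADAM and ADAMTS genes. The 10 listed proteases lie between −0.22 and 0.28, at means of about 25 CPM or more, and larger estimates such as those of *Adam23* (0.54) and *Adamts16* (−0.80) belong to other members of the families.

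Genes that regulate the proteases were measured next. Of the tissue inhibitors of metalloproteinases, *Timp1*, *Timp2*, and *Timp3* were abundant, at 609, 671, and 792 CPM in WT and 568, 680.1, and 812 CPM in *Plxnb1*-/- cultures, with log2 fold changes of −0.10, 0.02, and 0.04. TIMP3 is the family member known to inhibit ADAM17 and the aggrecanases. Exons of *Timp3* share 21.3% of their length with *Syn3* on the opposite strand. *Reck*, a membrane-anchored inhibitor known to restrain ADAM10, stood at 23.6 ± 1.11 and 27.3 ± 1.32 CPM (SD, n = 3), with a log2 fold change of 0.21 (adjusted p = 0.273 in edgeR and 0.104 in DESeq2). Neither tool called any of these 4 genes, of which 1 had an unadjusted p below 0.05, and *Timp4* was below the filter. For maturation and trafficking, 12 of 13 genes were tested, and edgeR and DESeq2 called 0. An unadjusted p below 0.05 in edgeR was reached by 5 (4 higher and 1 lower), against 13.7% of all tested genes. The tetraspanins that escort ADAM10 had log2 fold changes of 0.22 (*Tspan17*), 0.16 (*Tspan15*), 0.15 (*Tspan14*), and −0.05 (*Tspan5*), and *Tspan33*, with means of 0.144 (WT) and 0.109 CPM (*Plxnb1*-/-), had −0.40 ± 0.42 (SE). *Rhbdf1* and *Rhbdf2*, which encode the iRhoms that escort ADAM17, had values of 0.18 and 0.09, and *Frmd8*, whose product stabilizes the iRhoms, had 0.20. *Furin*, which encodes a convertase that removes prodomains, had a level of 405 ± 13.6 CPM in WT and of 379 ± 7.30 CPM in *Plxnb1*-/- cultures, a log2 fold change of −0.10. The other convertases had values of −0.19 (*Pcsk5*), −0.35 (*Pcsk6*), and −0.02 (*Pcsk7*). Without WT replicate 2, values moved by over 1.5 times for *Tspan15* (0.08), *Tspan17* (0.14), *Rhbdf1* (0.11), *Rhbdf2* (0.02), *Frmd8* (0.12), *Pcsk6* (−0.03), *Timp1* (−0.03), and *Timp3* (0.02), and *Pcsk5* turned to 0.04.

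Substrates were listed from general knowledge of these enzymes. Of 25 genes for membrane proteins that ADAM10 or ADAM17 can cut, 12 had higher and 13 lower estimates, with a median log2 fold change of −0.02, which turned to 0.03 without WT replicate 2. edgeR called 0 of 25, with 9 at an unadjusted p below 0.05 (6 higher and 3 lower), against 13.7% of all tested genes. DESeq2 called 2, against 2.24% of the 14960 genes with a DESeq2 adjusted p, which 4 of the 25 lacked. *Nrg1*, neuregulin-1, had a level of 26.1 ± 2.33 CPM in WT and of 19.6 ± 1.05 CPM in *Plxnb1*-/- cultures, with a log2 fold change of −0.41 (adjusted p = 0.00116 in DESeq2 and 0.220 in edgeR). The medium of both genotypes contained neuregulin. *Sdc4*, the heparan sulfate proteoglycan syndecan-4, stood at 177 ± 14.9 and 216 ± 14.6 CPM, with a log2 fold change of 0.29 (adjusted p = 0.0207 in DESeq2 and 0.273 in edgeR). Without WT replicate 2, DESeq2 gave adjusted p-values of 0.010 for *Nrg1* and 0.052 for *Sdc4*. It called 7 of the 25 without WT replicate 1 and 0 without *Plxnb1*-/- replicate 3, where it called 938 and 46 of all genes.

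Of 20 genes for matrix proteins cut by ADAMTS proteases, 12 had lower and 8 higher estimates, with a median log2 fold change of −0.17, which was −0.07 without WT replicate 2. edgeR called 0 of 20, with 11 at an unadjusted p below 0.05 (2 higher and 9 lower). Of all tested genes, 13.7% reached this level (6.95% higher and 6.78% lower). DESeq2 gave no adjusted p to 1 of the 20. It called 4, all lower in *Plxnb1*-/- cultures, against 1.21% called lower among the 14960 genes with such a value. These were *Vcan*, the proteoglycan versican (388 ± 55.3 CPM in WT and 314 ± 7.99 CPM in *Plxnb1*-/-; SD, n = 3), *Col1a1*, a chain of type I collagen, *Fn1*, fibronectin, and *Thbs2*, thrombospondin-2, with log2 fold changes of −0.31, −0.30, −0.31, and −0.31. Their values were highest in WT replicate 2, and without it the log2 fold changes were −0.18, −0.19, −0.18, and −0.20. DESeq2 called 0 of the 20 genes without WT replicate 2 or without any 1 of the *Plxnb1*-/- replicates, 2 without WT replicate 3, and 9 without WT replicate 1. In this last fit it called 938 of all genes. Without WT replicate 2, the DESeq2 adjusted p was 0.0097 for *Col1a1* and 0.024 for *Thbs2*, which missed the fold cutoff alone. It was 0.052 for *Vcan* and 0.093 for *Fn1*. *Vcan*, *Col1a1*, *Fn1*, and *Thbs2* are also expressed by fibroblasts, whose summed markers were lower in *Plxnb1*-/- cultures (above). The highest gene of that sum was *Col3a1*, which, like *Dcn*, is in both the marker list and this list of matrix proteins. Their log2 fold changes were −0.23 for *Col3a1* and −0.006 for *Dcn*. The lower sum is therefore not independent of this list, and the part of fibroblasts was not tested. *Acan*, aggrecan, was low, at 2.04 ± 0.684 and 1.41 ± 0.561 CPM. The highest estimate of the list, 2.53 for *Col2a1*, rested on *Plxnb1*-/- replicate 2, where it stood at 10.9 CPM.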

How the data were processed

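Total RNA of cultured SCs was selected by poly(A) tail and sequenced from stranded libraries, 3 WT and 3 *Plxnb1*-/-, grouped by the genotype in the labels. Per the labels, reads were trimmed (Trim Galore 0.6.5), aligned to mm10 with Bowtie2 2.4.1, which does not span introns, and processed with SAMtools 1.10. The authors removed duplicates and counted reads on GENCODE exons with featureCounts, and the deposited values are raw counts without normalization. Reads that cross exon junctions may be lost, more so in genes of many short exons. FPKM values were also deposited and were not used.

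Identifiers were matched to GENCODE M21 on GRCm38, an older release than that of the authors, for 55141 of 55401 genes. The filter kept the 22318 genes that reached 2 counts in 5 or more of the 6 libraries. Genotypes were compared with edgeR 4.0.16 (R 4.3.3; TMM normalization; quasi-likelihood test with no term but genotype), with Benjamini-Hochberg adjustment over all tested genes. A gene was called where the adjusted p was below 0.05 and the log2 fold change lay beyond 0.25 in either direction. DESeq2 1.42.0, which the study used, was the alternative, and its adjusted p was set to NA for genes below its own filter. CPM used TMM-scaled library sizes. Standard errors are the log2 fold change over the square root of F. Replicate numbers are shared by the genotypes, but correlations of deviations between same-numbered cultures were −0.02, 0.01, and 0.07, so that the numbers were not taken as pairs. Replicate libraries differed by more than counting noise.

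The members and all lists were chosen with earlier results of these data known. The rule allowed naming the 10 members, *Plxnb1*, all tested inhibitors and maturation genes, and, from each other list, called genes, the largest rise and fall at a mean of at least 1 CPM, and for marker lists the genes of highest level. Not all genes that it allowed are named. The settings compared were other normalizations, filters, dispersion, fold cutoff, gene length, a replicate block, DESeq2, and each library left out. The zinc site was searched as 11 codons. Its eighth codon was first set as glycine and was widened to asparagine after *Adamts1* and *Adamts9* gave no match. The scripts were first tested on simulated data. Protein sequences were not used here.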

Additional observations from a re-analysis of the deposited data

How the results depend on the processing

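Of 140 log2 fold changes of the 10 proteases under the alternatives, 139 kept their direction and their side of the threshold. The exception was *Adamts12*, which turned to −0.064 without WT replicate 1 (range as each library was left out, −0.064 to 0.14). Of 447 values of other named genes, 430 kept both, 13 passed the threshold that they had missed in edgeR, and 4 changed sign, with ranges over the libraries left out of −0.034 to 0.17 for *Adamtsl4*, −0.35 to 0.038 for *Pcsk5*, and −0.0047 to 0.034 for *Timp2*. No scaling moved the median of all genes by more than 0.0119. A replicate block, with the numbers taken as a pairing, called 5 genes in place of 8 and 0 of the 10 proteases, and whether the lost calls reflect pairing was not tested.

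Counts of calls depended on the tool. Over all genes edgeR called 8, no filter on low counts gave 296, and DESeq2 gave 335. Leaving out a library gave 4 to 25 calls in edgeR, with 5, 4, and 4 without *Plxnb1*-/- replicates 1, 2, and 3 and 25 without WT replicate 2. In DESeq2 it gave 286, 121, and 46 calls without *Plxnb1*-/- replicates 1, 2, and 3 and 938, 160, and 220 without WT replicates 1, 2, and 3. The causes were not tested. DESeq2 with a library left out called 0 to 2 of the 10 proteases, 0 to 2 other ADAM genes, 0 to 4 other ADAMTS genes, 0 to 2 maturation genes, 0 to 7 substrates of ADAM10 or ADAM17, and 0 to 9 ADAMTS substrates. The highest counts came without WT replicate 1, and for other ADAM genes also without *Plxnb1*-/- replicate 1 and without WT replicate 2. With all libraries DESeq2 called 2 other ADAM genes, 2 substrates of ADAM10 or ADAM17, and 4 ADAMTS substrates, and edgeR without a filter called 1, 2, and 3. The fold change of *Plxnb1* was −2.08 with edgeR's own filter (adjusted p = 0.0715), −2.07 with library totals (0.0542), and −2.08 with robust dispersion (0.220), and −2.30 to −1.74 with a library left out, where the call was lost in 4 of 6 fits (adjusted p = 0.255, 0.268, and 0.125 without *Plxnb1*-/- replicates 1, 2, and 3 and 0.0886 without WT replicate 1). Counting error of the proteases was at most 2.74%, and their coefficients of variation lay between 1.01% and 16.1%.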
